A study of Mus musculus with 3 samples.

Results

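The 49 genes described here act on DNA double-strand breaks and on crosslinks between DNA strands: they join broken ends, signal the break, trim the ends, copy the lost sequence from a sister strand, or belong to the Fanconi pathway. They were taken by symbol from a fixed list, and all 49 had a protein-coding transcript in the deposited table, out of 18121 protein-coding genes with such a row and 84660 transcript rows in all. The libraries form 1 group of 3: wild-type cortical neurons from Swiss-Webster mouse embryos of embryonic day 16, grown in neurobasal medium with B27 and given no treatment. There was no other group, and the labels do not say whether the libraries came from separate cultures, so every SD (n = 3) is the spread between these libraries and may be technical. The value of a gene is the TPM, the length-scaled share of reads, of the row of its longest protein-coding transcript, and the row with the highest mean TPM served as a check. Rows of a gene share reads and were never summed.

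Cells repair a double-strand break mainly by end joining, which needs no template and works in every phase of the cell cycle, or by homologous recombination, which needs a sister chromatid and so depends on cells that have replicated their DNA. Topoisomerase II cuts both strands of DNA in each cycle of its action, and a trapped enzyme leaves such a break. Neurons no longer divide, so end joining is held to be their main route.

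The reads behind each value were computed from the smallest steps of the deposited numbers: for a 2 kb transcript, 1 TPM equalled 103 reads in library 1, 86.5 in library 2 and 91.4 in library 3. All 10 pan-neuronal markers were at 10 TPM or more, led by Stmn2 at 687 ± 55.6 TPM. All 10 astrocyte markers were at 1 TPM or more, led by Apoe at 420 ± 113 TPM, and 7 of 9 oligodendrocyte lineage markers were, led by Olig1 at 34.4 ± 2.91 TPM, while 1 of 7 microglial and 1 of 7 endothelial and mural markers reached 1 TPM. Of 20 proliferation markers 15 reached 1 TPM, with a summed level of 50.0, 39.7 and 49.9 TPM in libraries 1, 2 and 3 and Pcna, the replication clamp, highest at 8.36 ± 1.2 TPM. Which cells of the culture carried each transcript cannot be told from bulk RNA, in which fewer cells of a type and less RNA per cell cannot be told apart. The part of glia and dividing cells in the levels below was not tested.

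Most of the repair genes were transcribed at low levels, in that few reached 10 TPM. A mean of at least 1 TPM, called detected here, was reached by 28 of 49, a share near the 61.5% of all protein-coding genes. Their median was 1.34 ± 0.05 on the log2(TPM + 1) scale, against 1.94 ± 0.00 over all protein-coding genes. Only Paxx and Trp53bp1 stood at 10 TPM or more, beside 26.4% of protein-coding genes. Single members ran from Rad51b at 0.130 to Paxx at 24.2 TPM, which is the range shown in the plot of members by library. Because reads are shared between the rows of a gene, the limit of 1 TPM holds only on the deposited scale. At limits of 0.5 and 5 TPM, 38 and 8 members passed, beside 66.4% and 40.5% of protein-coding genes. With the levels rescaled to nuclear protein-coding genes, 47 of 49 members and 71.5% of protein-coding genes passed 1 TPM, and of the members only Rad51b and Brip1 did not. Members thus passed more often than protein-coding genes at 0.5 TPM and after rescaling, and less often at 5 and 10 TPM.

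**Figure D1:**
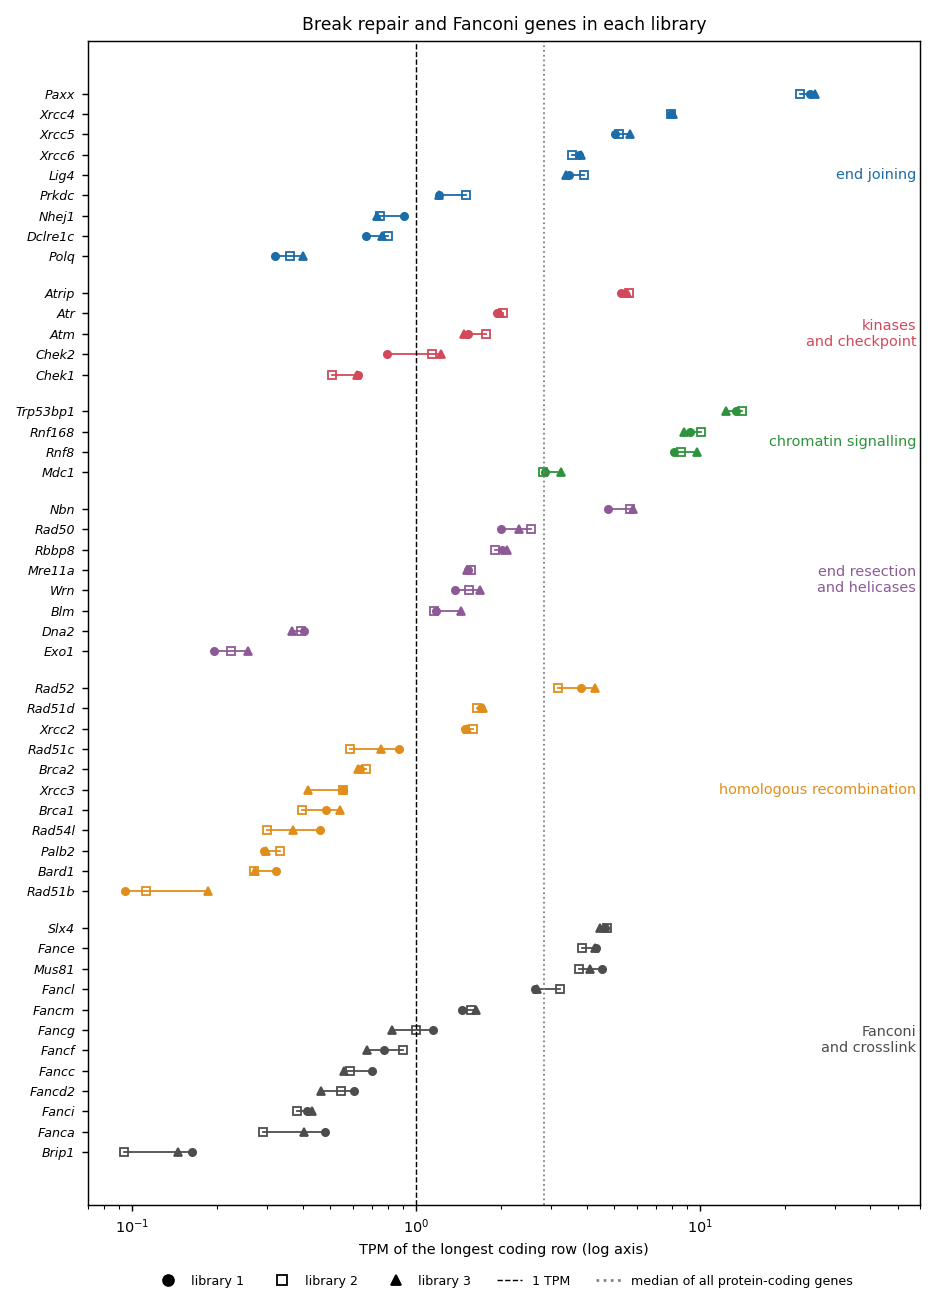
TPM of the longest coding row of each of the 49 genes in libraries 1 (filled circle), 2 (open square) and 3 (triangle), grouped by role, on a log axis; the dashed line is 1 TPM and the dotted line the median of all protein-coding genes, 2.84 TPM. All 4 chromatin signalling genes lie at or above the level of 2.80 TPM, whereas 8 of 11 recombination genes have means below 1 TPM. Of all protein-coding genes 61.5% have a mean of at least 1 TPM.

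The role groups differed in level. For comparison, 61.5% of all protein-coding genes were detected, with a median of 1.94 on the log2(TPM + 1) scale. The chromatin signalling genes had a median of 3.34 ± 0.06 on the log2(TPM + 1) scale with 4 of 4 detected, and the end-joining genes 2.20 ± 0.03 with 6 of 9. The kinases and checkpoint genes followed at 1.38 ± 0.09 (4 of 5 detected) and the end resection and helicase genes at 1.34 ± 0.04 (6 of 8). The order of these groups was not stable, with library medians of 1.31 and 1.38 in library 3. The Fanconi and crosslink genes had a median of 0.91 ± 0.09 (5 of 12) and the homologous recombination genes 0.59 ± 0.01 (3 of 11). The SD is that of the library medians, which for the recombination genes were 0.62 to 0.64 and so differ slightly from the median of the mean levels. In each library the lowest 2 medians were those of the recombination and Fanconi genes. These groups were set with earlier results of the same data known, and no test was made of them.

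**Figure D2:**
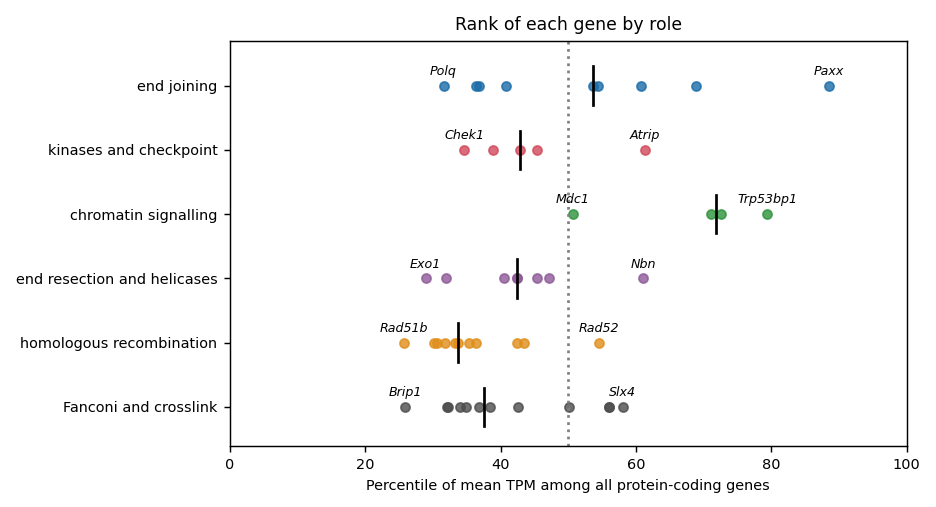
Percentile of each gene's mean TPM among 18121 protein-coding genes, by role; black bars are group medians, the dotted line is the 50th percentile, and the lowest and highest gene of each group is named. The median lies at percentile 71.8 for chromatin signalling, 53.7 for end joining and 33.7 for homologous recombination.

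End joining begins when the Ku ring, made of the products of Xrcc6 (Ku70) and Xrcc5 (Ku80), closes around the broken end. Xrcc5 stood at 5.04, 5.21 and 5.68 TPM in libraries 1, 2 and 3. Xrcc6 stood at 3.76, 3.57 and 3.83 TPM. The ranges did not overlap, and Xrcc6 minus Xrcc5 was -0.42 ± 0.07 in log2(TPM + 1), below 0 in every library (exact two-sided sign-flip permutation p = 0.25, adjusted p = 0.26 over 19 pairs). The order turned on the highest row, where a short coding model of Xrcc6 with 471 bases put the difference at 0.34, so the order of the Ku genes depends on the row. For a single pair, 0.25 is the smallest p that this test gives with 3 libraries, and the partner differences given below on the longest coding row without a p all have this value.

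Ku recruits DNA-PKcs, the kinase encoded by Prkdc, which was at 1.2, 1.5 and 1.21 TPM, highest in library 2. Dclre1c encodes Artemis, the nuclease that this kinase activates, and stood at 0.670, 0.801 and 0.758 TPM. The level of Dclre1c depended on the transcript: its longest model has 7075 bases of which 1809 are coding, whereas the model with the longest coding sequence, of 2469 bases, gave 2.08 TPM. Whether Dclre1c counts as detected therefore depends on the model used.

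The ligation step uses DNA ligase IV with its scaffold XRCC4. Xrcc4 had the smallest spread of the 49 members relative to its mean, at 7.92, 7.95 and 8.03 TPM. These values lie closer together than counting error alone, which spans 7.31 to 8.56 TPM in library 1 (exact Poisson interval, 95%). The rank is thus not shown to be a property of the gene. Lig4 stood at 3.48, 3.91 and 3.38 TPM. The scaffold exceeded the ligase in each library, by 0.97 ± 0.09 on the log2 scale. XLF, encoded by Nhej1, and PAXX are the structural relatives of XRCC4 that stabilise the joint. Paxx stood at 24.5, 22.7 and 25.5 TPM, in the 88.6th percentile of protein-coding genes, and Nhej1 at 0.908, 0.747 and 0.728 TPM, from 49, 34 and 35 reads. The counting error of Nhej1 alone spans 0.672 to 1.20 TPM in library 1 (exact Poisson interval, 95%, counting error only). Even so the difference between Paxx and Nhej1, 3.81 ± 0.11 on the log2 scale, was the widest of the 19 partner pairs in size. Nhej1 has only 1 row, a model of 1053 bases of which 495 are coding. Its start lies 78587 bases from RefSeq's. Whether this row stands for the whole gene was not tested, so its low level and the width of the gap may depend on the model. Polq, which encodes the polymerase of the alternative joining route, stood at 0.319, 0.360 and 0.402 TPM.

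The signal from a break runs through the kinases ATM, which responds to double-strand breaks, and ATR, which with its partner ATRIP responds to single-stranded DNA. Atm stood at 1.53, 1.77 and 1.48 TPM and Atr at 1.93, 2.02 and 1.99 TPM, a difference of -0.20 ± 0.07 that was 0.23 on the highest row. Atrip, at 5.30, 5.65 and 5.54 TPM, exceeded Atr in every library, with Atr minus Atrip at -1.12 ± 0.02 on the log2 scale. The gap between these binding partners varied little between libraries on the longest coding row, but was -1.29 ± 0.27 on the highest row. The effector kinase genes were lower. Chek2, downstream of ATM, was at 0.790, 1.14 and 1.23 TPM and passed the limit in 2 of 3 libraries, and Chek1, downstream of ATR, was at 0.627, 0.506 and 0.623 TPM. Chek2 exceeded Chek1 by 0.37 ± 0.20, but stood below it by -0.25 on the highest row, where a 310-base model represents Chek1.

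MDC1 binds the histone mark that ATM lays down at the break, and recruits the ubiquitin ligases RNF8 and RNF168, whose marks bring in 53BP1. The genes of this relay were the highest group. Mdc1 stood at 2.85, 2.80 and 3.24 TPM and Rnf168 at 9.25, 10.1 and 8.84 TPM. Rnf8 was at 8.11, 8.58 and 9.80 TPM, but 28.5% of its row lies within exons of Gm28043 on the same strand, so its level is uncertain. Rnf8 and Rnf168 could not be ordered: the difference was -0.09 ± 0.19 and above 0 in 1 of 3 libraries (exact sign-flip permutation p = 0.5, adjusted p = 0.5). Trp53bp1, which encodes 53BP1, the factor that protects ends from trimming, stood at 13.4, 14.2 and 12.4 TPM from at least 5460 reads in each library. Its opposite in the choice of pathway, Brca1, was at 0.481, 0.398 and 0.540 TPM. Trp53bp1 exceeded Brca1 by 3.28 ± 0.16 on the log2 scale, a ratio of the mean TPM values of 28.2.

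Trimming of the ends starts with the MRN complex. Nbn stood at 4.75, 5.67 and 5.84 TPM, Rad50 at 2.0, 2.54 and 2.31 TPM and Mre11a at 1.53, 1.57 and 1.52 TPM. The levels of the 3 subunit genes did not overlap, with Nbn above Rad50 and Rad50 above Mre11a in each library. On the log2 scale Rad50 minus Nbn was -0.97 ± 0.07 and Rad50 minus Mre11a 0.37 ± 0.11, which became -0.50 and 0.23 on the highest row. Rbbp8, which encodes the MRN cofactor CtIP, stood at 1.90 to 2.09 TPM. Long-range trimming falls to the nucleases EXO1 and DNA2, and their genes were the low end of this group. Exo1 was at 0.195, 0.223 and 0.256 TPM and Dna2 at 0.402, 0.393 and 0.366 TPM. The RecQ helicase genes Blm and Wrn, mutated in Bloom and Werner syndromes, lay above the limit in all libraries, at 1.26 ± 0.159 and 1.53 ± 0.154 TPM. Their ranges overlapped, but within libraries Wrn minus Blm was 0.16 ± 0.06 on the log2 scale, above 0 in every library. Dna2 exceeded Exo1 by 0.18 ± 0.05 on the log2 scale, but the difference was -0.14 on the highest row (exact permutation p = 0.5).

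Homologous recombination genes were mostly below 1 TPM, among them those of the BRCA proteins and their partners. Bard1, the obligate partner of Brca1, stood at 0.321, 0.270 and 0.271 TPM. Palb2, which links BRCA1 to BRCA2, was at 0.291, 0.333 and 0.298 TPM, from 51 to 56 reads. Brca2 was at 0.637, 0.669 and 0.625 TPM. On the log2 scale Palb2 minus Brca2 was -0.33 ± 0.01 and Bard1 minus Brca1 -0.19 ± 0.07, so Brca1 and Brca2 each stood above the partner in every library. On the highest row the second difference was -0.60.

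Rad51d, at 1.69 ± 0.0438 TPM, and Xrcc2, at 1.53 ± 0.0561 TPM, whose products sit next to each other in one complex, were both detected and lay within 0.09 ± 0.05 of each other on the log2 scale, but 0.44 ± 0.19 apart on the highest row. Rad51c was at 0.876, 0.586 and 0.755 TPM and Xrcc3 at 0.556, 0.554 and 0.416 TPM, and Rad51b had the lowest mean of the 49 genes, at 0.0941, 0.112 and 0.185 TPM, a range that overlaps that of Brip1. Rad54l, which encodes a DNA translocase, stood at 0.458, 0.298 and 0.369 TPM. Rad52, a strand-annealing factor, was the exception of the group at 3.81, 3.17 and 4.27 TPM, above every other recombination gene in each library.

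In the Fanconi pathway a core complex attaches ubiquitin to FANCD2 and FANCI, after which nucleases unhook the crosslink. The core complex genes were uneven. Fance stood at 4.32, 3.87 and 4.27 TPM, and Fancl, the ubiquitin ligase subunit, at 2.63, 3.24 and 2.67 TPM. Fanca was at 0.479, 0.289 and 0.405 TPM. Fancg, whose product binds that of Fanca directly, lay at the limit with 0.990 ± 0.163 TPM, with Fanca minus Fancg at -0.52 ± 0.13 on the log2 scale. Fancf, which is read from a single exon, and Fancc were at 0.783 ± 0.115 and 0.615 ± 0.0761 TPM, and Fancm, the DNA translocase, at 1.55 ± 0.0892 TPM. The targets of the complex were both low and close to each other: Fancd2 stood at 0.605, 0.546 and 0.465 TPM and Fanci at 0.414, 0.381 and 0.431 TPM. Brip1, the helicase partner of BRCA1, was at 0.163, 0.0934 and 0.145 TPM. The nuclease genes downstream were higher. Slx4, the scaffold, stood at 4.66, 4.73 and 4.46 TPM and Mus81 at 4.52, 3.76 and 4.11 TPM, with overlapping ranges. Within libraries Mus81 minus Slx4 was -0.13 ± 0.12 on the log2 scale, below 0 in every library.

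The level of 15 of the 49 genes depended on the transcript, with a highest row at least 1.5 times the longest coding row, beside 19.4% of protein-coding genes with a mean of at least 0.1 TPM. The largest ratios were 3.22 for Dclre1c, 2.82 for Fancl and 2.61 for Exo1. In 18 members the highest row was not a protein-coding model, beside 25% of the same protein-coding genes. For Rad51c it was a nonsense-mediated decay model of 938 bases at 1.78 TPM, and for Trp53bp1 one of 594 bases at 21.8 TPM. With the highest row Dclre1c, Chek1, Rad51c, Fancc and Fancg joined the detected genes, which made 33 of 49, beside 62.9% of protein-coding genes. With the row of the longest coding sequence Dclre1c and Rad51c joined, which made 30, beside 61.7%.

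**Figure D3:**
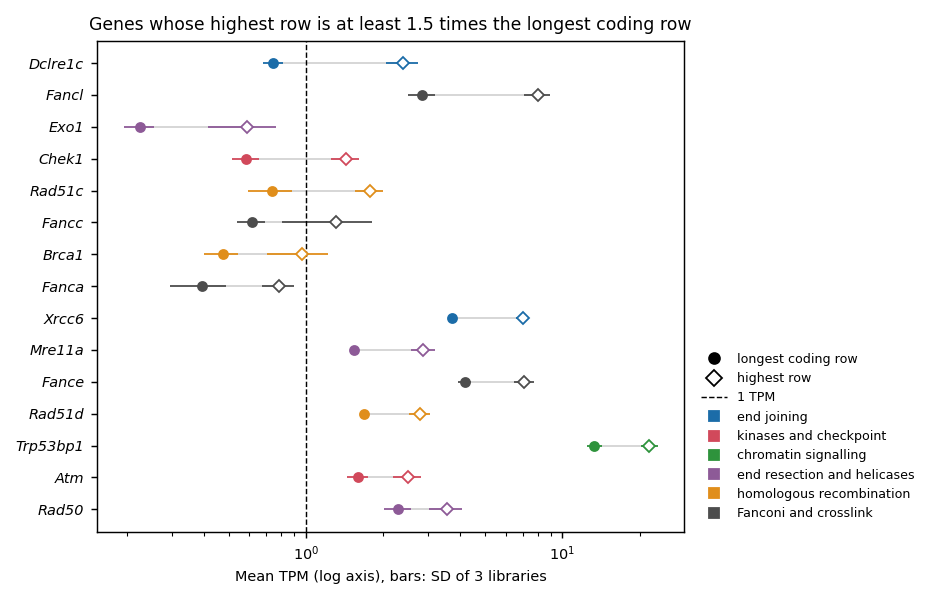
Mean TPM ± SD (n = 3) of the longest coding row (filled circle) and of the highest row (open diamond) for the 15 genes in which the second is at least 1.5 times the first, on a log axis, coloured by role. Dclre1c, Chek1, Rad51c and Fancc cross the dashed line at 1 TPM from left to right, whereas Brca1 stops at 0.961 TPM.

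The libraries were not low for the same genes. Of 11 recombination genes 6 were lowest in library 2 and 3 highest there, and the median ratio of library 2 to the mean of libraries 1 and 3 was 0.912. Of 12 Fanconi genes 5 were lowest in library 2 and 5 in library 3, with a median ratio of 0.972. Highest in library 1 were 7 of them, and 3 in library 2. Among protein-coding genes with a mean of at least 0.1 TPM, 26.8% were lowest in library 2 and 38.7% in library 3. Of the same genes 27.9% were highest in library 1 and 38.8% in library 2. The ratio was lowest for Brip1, at 0.606 from 28 reads against 58 and 46, and for Fanca, at 0.654. It was highest for Fancf, Prkdc and Fancl, at 1.25, 1.25 and 1.22. For Rad51c and Fanca the 95% Poisson interval of library 2 lay wholly below that of library 1, but for 0 of the 39 members whose reads could be computed did it lie below both other libraries. The same share over all protein-coding genes is not given here. Libraries differed by more than counting error, so such a gap between intervals is not by itself unusual. The end-joining members had a median ratio of 0.996, with 2 of 9 lowest in library 2. The ratio was 1.04 for kinases and checkpoint genes, 1.03 for chromatin signalling and 1.02 for end resection and helicases. Over all 49 members the median ratio was 0.998, with 17 lowest and 16 highest in library 2. In the lists of other genes the median ratio was 0.901 for end joining, with 8 of 14 lowest in library 2, and 0.970 for signalling, with 9 of 18. For recombination it was 0.985, with 7 of 17, and for the Fanconi pathway 0.997, with 4 of 14. All 20 proliferation markers were lowest in library 2, with a median ratio of 0.796, and Mki67 stood at 1.72, 1.46 and 2.22 TPM. Oligodendrocyte lineage markers had a median ratio of 0.534 over 9 genes. The part of dividing cells in the levels of the repair genes was not tested, and 3 libraries of 1 group allow no correlation.

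**Figure D4:**
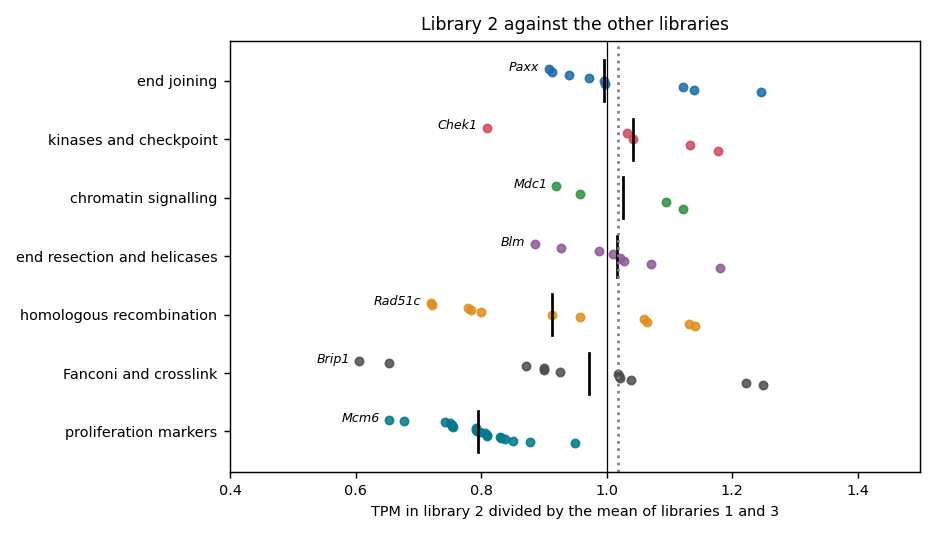
TPM in library 2 divided by the mean of libraries 1 and 3, for each gene by role and for 20 proliferation markers; black bars are medians, the solid line is 1 and the dotted line the median over protein-coding genes, 1.02. All proliferation markers lie left of 1, while the genes of each repair group lie on both sides, from Brip1 at 0.606 to Fancf at 1.25.

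Repair genes often lay head to head with another gene. The outermost annotated start of a protein-coding gene on the other strand was within 1 kb of that of 15 of 49 members (30.6%), beside 12.8% of protein-coding genes. The neighbour was the higher of the pair in all 3 libraries in 14 of 15 cases. These members had a median of 0.783 TPM and their neighbours 7.17 TPM, beside 2.84 TPM over all protein-coding genes. The same count for other genes of such a low level is not given here, so the direction is not shown to be particular to repair genes. In 4 pairs, those of Lig4, Mre11a, Rad54l and Fancf, a row used here begins over 1 kb from the outermost start, and in the other 11 the neighbour was higher in 10. The median difference between neighbours was 1.51 on the log2(TPM + 1) scale regardless of direction, near the 1.61 over 1159 such pairs in the genome. Adding 1 to the TPM shrinks differences that involve genes of low level, as many of these members are. The comparison is given on this scale only, so it does not show that the differences are of like size.

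The DNA between both starts is shown for 5 pairs whose rows begin within 1 kb of the outermost starts. They are 3 of the widest differences, a narrower one and the one in which the repair gene was the higher. The row of Rad51c begins 431 bases from its outermost start, and the other rows of these pairs 76 bases or less. The sequences are RefSeq's on GRCm38.p6, written 5′ to 3′ on the strand of the repair gene and ending just before its outermost start, and capitals mark CCAAT or GGGCGG on either strand.
Palb2, chr7:122132986-122133040, minus strand: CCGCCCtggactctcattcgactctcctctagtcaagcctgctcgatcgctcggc
Fancd2, chr6:113531653-113531681, plus strand: gtaacgtcacgccacggcgcggctttgat
Brca1, chr11:101551956-101552148, minus strand: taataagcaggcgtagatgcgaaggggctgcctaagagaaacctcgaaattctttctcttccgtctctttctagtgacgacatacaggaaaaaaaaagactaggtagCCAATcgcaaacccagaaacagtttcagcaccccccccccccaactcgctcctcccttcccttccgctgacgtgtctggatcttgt
Chek2, chr5:110839778-110839978, plus strand: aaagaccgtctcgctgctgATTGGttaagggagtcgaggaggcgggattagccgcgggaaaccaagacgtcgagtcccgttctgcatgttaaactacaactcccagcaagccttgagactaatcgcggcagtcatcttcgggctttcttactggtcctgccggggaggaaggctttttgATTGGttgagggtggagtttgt
Rad51c, chr11:87404955-87405064, minus strand: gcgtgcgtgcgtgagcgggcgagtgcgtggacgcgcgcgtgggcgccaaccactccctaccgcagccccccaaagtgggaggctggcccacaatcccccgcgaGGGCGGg

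On the far side of the 55 bases before Palb2 starts Dctn5, a dynactin subunit gene, at 44.3, 43.4 and 39.4 TPM, which is 138 times the mean level of Palb2. Emc3, which encodes a subunit of a membrane protein insertion complex, lies across the 29 bases from Fancd2 and stood at 33.7, 32.1 and 33.0 TPM, 61.2 times Fancd2. Nbr1, an autophagy receptor gene, stood at 22.8, 25.8 and 26.1 TPM across from Brca1, 52.7 times its mean. In these 3 pairs the neighbour was above 20 TPM in every library and the repair gene below 1. Chek2 and its neighbour Hscb, an iron-sulphur cluster co-chaperone gene, were closer, with Hscb at 3.74, 4.0 and 5.80 TPM. Rad51c was the exception, since Tex14, a gene of germ cell bridges, was at 0.0410, 0.0243 and 0.0460 TPM, 0.0502 times Rad51c. Prkdc faced the replication helicase gene Mcm4 at 3.29 ± 0.425 TPM, and Atm faced Npat, a regulator of histone genes, at 3.67 ± 0.485 TPM; both neighbours were higher than the repair gene.

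**Figure D5:**
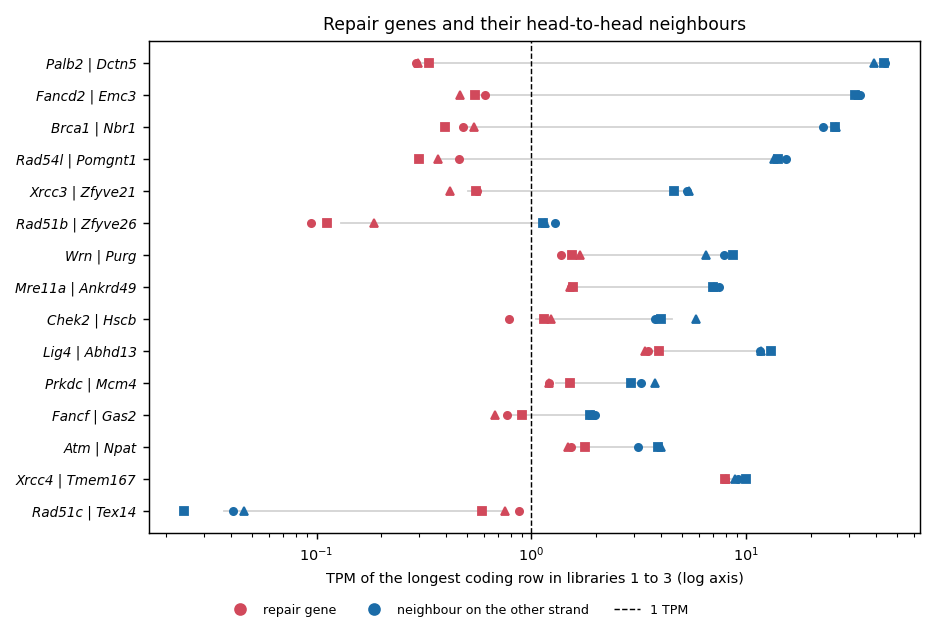
TPM of 15 repair genes (red) and of the protein-coding gene that starts within 1 kb on the other strand (blue), in libraries 1 (circle), 2 (square) and 3 (triangle), on a log axis, ordered by the ratio of the means. The neighbour lies to the right of the repair gene in every pair but Rad51c and Tex14, with the widest gap for Palb2 and Dctn5.

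A RefSeq promoter window of 300 bases, from 250 before to 50 after the start, was found for 40 of 49 members. The start is RefSeq's. In Nhej1, Atm, Fancl and Xrcc6 it lies 78587, 2705, 949 and 850 bases from the GENCODE start of the longest coding transcript, whose row is used here. There was none for Prkdc, Rad50, Nbn, Rbbp8, Exo1, Wrn, Rad51d, Xrcc2 and Fancd2. The windows held a median of 22 CpG pairs, against 18 over 13913 protein-coding genes, and ranged from 3 in Fancl to 35. Each motif was searched on both strands. CCAAT was in 22 of 40 windows, or 55.0%, beside 37.8% of all windows, and GGGCGG in 27 of 40, or 67.5%, beside 56.3%. The E2F-type sequence TTTCGCGC occurred in that of Rad51c alone, beside 0.489% of all windows, and TTTGGCGC in none, beside 0.791%. CCGGAAGT, of the ETS type, was in those of Dclre1c, Palb2 and Rnf168, beside 6.50%. TTTGAA, an element of cell-cycle genes, was in 3 windows, those of Bard1, Polq and Rnf8, beside 13.0%, and TATAAA in 3, those of Atm, Brca2 and Slx4, beside 9.42%. A match is a description of the letters, and these motifs can overlap.

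Longer genes were not the higher ones. Spearman's rho of genomic span against mean TPM was -0.21 over the 49 genes and 0.19 over 18121 protein-coding genes; genes are not independent replicates, and both measures depend on the annotation. The median span of the members was 47.1 kb, against 21.2 kb, and ran from 1.69 kb for Fancf to 316 kb for Xrcc4.

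Of 14 other end-joining genes 12 were detected, led by Parp1, a sensor of breaks, at 21 ± 1.51 TPM and Tdp2, which removes trapped TOP2 from DNA ends, at 9.76 ± 1.07 TPM. Of 18 other signalling genes 15 were detected, led by Babam1 of the BRCA1-A complex at 16.5 ± 0.25 TPM, with H2afx, the histone that carries the break mark, at 11.3 ± 1.27 TPM. Of 17 other recombination genes 12 were detected, and the partners Swi5 and Sfr1 were the highest at 177 ± 22.8 and 65.3 ± 3.96 TPM. Of 14 other Fanconi genes 13 were detected, led by Wdr48, a cofactor of the enzyme that removes ubiquitin from FANCD2, at 16.3 ± 0.637 TPM. Of all protein-coding genes 61.5% were detected. The medians of these lists were, in the order given, 2.53, 2.14, 2.07 and 2.52 on the log2(TPM + 1) scale, against 1.94 over all protein-coding genes. The low medians of the recombination and Fanconi members, 0.59 and 0.91, thus hold for the members and not for these other genes. For comparison Top2b, the topoisomerase II of non-dividing cells, stood at 41.0 ± 4.02 TPM on its longest coding row.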

How the data were processed

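Poly-A RNA of 3 libraries of untreated cortical neurons was sequenced. The authors deposited TPM for each GENCODE M4 transcript and library, with each column summing to 1000000, per the file headers; Trimmomatic, TopHat, Bowtie, HTSeq and mm10 are named per the submitters' processing notes, without versions or roles. How strand and reads with several positions were handled is not given in the sources used here.

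Of 84660 rows 83017 matched GENCODE M21 (same build) by transcript identifier, and 47 of these lay elsewhere and were dropped. Symbols, types and lengths are those of M21, so a length can differ where a model changed; of the other pathway lists Fam175a was found as Abraxas1 and Stra13 as Cenpx, and Hrob was not matched. In 42156 rows whose model is equal in length, 100% of the products of TPM and length were whole multiples, within 0.01, of a number fixed for the library, which gave the reads per row. Of 646 rows of at least 300 bases nested in a longer row of the same gene, 99.8% had no more reads than it and none was at 0, so rows share reads. Another 3 rows lying inside exons of an opposite-strand row above 50 TPM had a median of 0.000509 times its level. Exons of 16 members overlap a gene on the other strand, and those of Rnf8 a gene on its own.

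Members, roles, lists and pairs were chosen with earlier results of these data known. Named genes are all members, the highest genes of each other list, a few fixed in advance and the head-to-head neighbours. Partner differences of log2(TPM + 1) were taken within libraries, and a two-sided exact permutation flipped their signs, with p adjusted by Benjamini-Hochberg over 19 pairs. Intervals are exact Poisson and cover counting error only. Libraries differed by more than counting error (chi-square over its degrees of freedom 12.3, 17.0 and 17.9 for the pairs), and each counted as 1 sample. Alternatives were the highest row, the longest coding sequence, a pseudocount of 0.1, scaling to nuclear protein-coding genes, limits of 0.5 and 5 TPM for detection, library medians in place of means, and leaving out each library. Scripts used Python 3.11.15, numpy 2.4.6, pandas 2.3.3, scipy 1.17.1 and matplotlib 3.10.9 and were tested on simulated data.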

Additional observations from a re-analysis of the deposited data

How the results depend on the processing

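The order of 4 partner pairs reversed on the highest row: Xrcc6 minus Xrcc5 to 0.34, Atm minus Atr to 0.23, Chek2 minus Chek1 to -0.25 and Dna2 minus Exo1 to -0.14; the mean difference of the other 15 kept its sign there, and of all 19 under the other alternatives run, although Rnf8 and Rnf168 had no clear order. On the highest row Rad50 minus Mre11a, at 0.23, and Fancd2 minus Fanci, at 0.12, no longer had 1 sign in every library, and Rad51c minus Xrcc3 rose from 0.20 to 0.86. The order of the kinase and resection medians turned on the row of the longest coding sequence, without replicate 2 and with medians over libraries. Detected members numbered 47 after scaling, which raised the median of protein-coding genes by 1.92 and that of the members by 1.71 on the log2 scale, and 8 at a limit of 5 TPM; the other settings gave 28 to 38. Without replicate 3 Chek2 and Fancg changed sides. Group medians of end joining, kinases, chromatin signalling, resection, recombination and Fanconi genes were, in that order, 1.88, 0.76, 3.20, 0.71, -0.72 and -0.027 with a pseudocount of 0.1, and 4.18, 3.10, 5.47, 3.06, 1.77 and 2.38 after scaling, by construction of another scale. On the highest row those of the last 5 groups were 1.58, 3.48, 1.46, 0.72 and 1.23, and on the row of the longest coding sequence that of resection was 1.41. Medians over libraries gave 2.16 for end joining and 0.64 for recombination, and leaving out 1 library gave 2.15 to 2.22 and 0.57 to 0.64. The causes were not tested. No paired analysis was possible because the libraries form 1 group, so none pairs with a sample of another; genes were compared within libraries. With 3 libraries the sign-flip permutation cannot go below 0.25, and genes with few reads, such as Brip1 with 28 in library 2, are known only within wide counting error.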
